A study of Danio rerio with 18 samples.

Results

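Cytochrome P450 genes were followed in the dissected livers of zebrafish larvae carrying a uhrf1 mutation, with and without the drug palbociclib. The genes were taken by symbol: every gene ID whose symbol began with cyp and a digit, leaving out the aryl hydrocarbon receptor targets of the CYP1A, CYP1B and CYP1C subfamilies, the sterol synthesis gene CYP51A1, and the vitamin D genes CYP24A1, CYP27B1 and CYP2R1. Of 85 such IDs, 77 remained after these 8 were left out, and 71 of them held 10 or more counts over the 18 libraries, out of 32105 gene IDs in all. Of the 71, 55 had enough counts in enough libraries to be tested, among 17048 genes tested in all.

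P450 enzymes are heme proteins that insert an oxygen atom into lipophilic substrates, and most of those in liver sit in the endoplasmic reticulum, where P450 oxidoreductase feeds them electrons. The family number groups them by sequence. Families CYP1 to CYP4 act largely on foreign chemicals and fatty acids, whereas higher family numbers mostly make or break down single endogenous compounds: bile acids, steroid hormones, retinoic acid and oxysterols. In liver, the levels of many P450 genes are set by nuclear receptors, among them the pregnane X receptor encoded by NR1I2, and by hepatocyte transcription factors such as HNF4A.

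The larvae came from incrosses of uhrf1-hi272+/- adults that also carried Tg(fabp10a:CAAX-EGFP), a transgene expressed from a hepatocyte promoter to make the liver visible for dissection; the strain label is ABNYU. uhrf1 encodes a protein needed to maintain DNA methylation. From 48 h after fertilization all larvae, controls included, were kept in 0.5% DMSO, and the treated ones also in 20 µM palbociclib, an inhibitor of the cell cycle kinases CDK4 and CDK6. At 120 h the livers were dissected, each larva was genotyped from the rest of its body, and 15 to 20 livers of like genotype were pooled into a library from total RNA depleted of ribosomal RNA. The groups were mutant (uhrf1-hi272-/-) in palbociclib with 5 libraries, control in palbociclib with 4, mutant in DMSO with 5 and control in DMSO with 4; the design text calls the controls wild type. Values are listed by library number, which for control palbociclib runs 1, 2, 4 and 5. The vehicle was thus common to all 4 groups.

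Total counts per library ran from 2863560 to 4056715 in mutant palbociclib, 3400255 to 4764175 in control palbociclib, 2467926 to 3618445 in mutant DMSO and 4141600 to 5199301 in control DMSO libraries. Levels are given as CPM (edgeR's library-scaled count unit, here with TMM factors); CPM are not corrected for gene length, so results compare levels between groups and not between genes; a ranking by CPM served only to pick which gene of each family to describe. uhrf1 itself averaged 41.0 ± 6.82 CPM in mutant palbociclib, 48.3 ± 7.75 in control palbociclib, 46.5 ± 7.55 in mutant DMSO and 37.8 ± 7.50 in control DMSO livers (SD, n = 5, 4, 5 and 4), and it passed no test, so its level did not check the genotype labels. Transcripts of 38 proteins secreted by hepatocytes took 5.35 to 7.91% of the counts in mutant palbociclib, 4.61 to 8.21% in control palbociclib, 3.82 to 5.82% in mutant DMSO and 7.72 to 10.1% in control DMSO libraries. Transcripts of 28 skeletal muscle markers, which a dissected liver should lack, took 5.51 to 6.51%, 4.44 to 6.62%, 4.68 to 6.68% and 3.03 to 5.13% in the same order of groups, and all 28 were detected in each group. Biliary markers took on average 0.251%, 0.179%, 0.295% and 0.168% and macrophage markers 0.0160%, 0.0083%, 0.0221% and 0.0051% in that order.

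The 4 control DMSO libraries were unlike each other, and so were the control palbociclib libraries. The SD of the hepatocyte share was 1.57% in control palbociclib and 1.05% in control DMSO libraries. That of the muscle share was 0.976% and 0.946%. Control DMSO libraries 3 and 4 had the lowest muscle shares, 3.23% and 3.03%, and the lowest TMM factors, 0.776 and 0.762. Control DMSO library 2 had the highest muscle share of its group, 5.13%, the lowest hepatocyte share, 7.72%, and a TMM factor of 0.999. The P450 share ran in the reverse order of the muscle share: 0.268%, 0.251%, 0.347% and 0.367% of the counts in control DMSO libraries 1, 2, 3 and 4. The other groups did not all share this order. Mutant DMSO library 3 had the highest P450 and muscle shares of its group, 0.193% and 6.68%, and library 1 the lowest, 0.177% and 4.68%. Mutant palbociclib library 5 had the highest P450 share of its group, 0.223%, and the lowest muscle share, 5.51%. In control palbociclib libraries the P450 share was 0.229 to 0.243% at muscle shares of 4.44 to 6.62%. As control DMSO libraries differed, counts of called P450 genes, families and gene lists using them are also given without libraries 3 and 4. That setting was chosen after the data were seen. It keeps only control DMSO libraries 1 and 2, and the part of the smaller group in lost calls was not tested.

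P450 transcripts together made up a smaller part of the liver counts in mutants than in controls, and the gap was wider in DMSO. Their summed share was 0.188 to 0.223% in mutant palbociclib livers (mean 0.210%), against 0.229 to 0.243% in control palbociclib livers (mean 0.238%). In mutant DMSO livers it was 0.177 to 0.193% (mean 0.186%), against 0.251 to 0.367% in control DMSO livers (mean 0.308%). Neither pair of groups overlapped, and the difference between the gaps was not tested. Most of this came from family CYP2, whose share averaged 0.0808% in mutant palbociclib, 0.105% in control palbociclib, 0.0640% in mutant DMSO and 0.156% in control DMSO livers. Family CYP3 was nearly level, at 0.0806%, 0.0784%, 0.0801% and 0.0744% in the same order. The hepatocyte share was lowest in mutant DMSO and highest in control DMSO livers, as the P450 share was. The muscle share was lowest in control DMSO livers. Under palbociclib the hepatocyte share averaged 6.60% in mutants and 6.53% in controls, while the P450 share was lower in mutants. The muscle share there averaged 6.07% in mutants and 5.54% in controls. The part of the hepatocyte and muscle shares in the P450 differences was not tested. In bulk tissue, fewer hepatocytes and less P450 RNA per hepatocyte cannot be told apart.

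**Figure D1:**
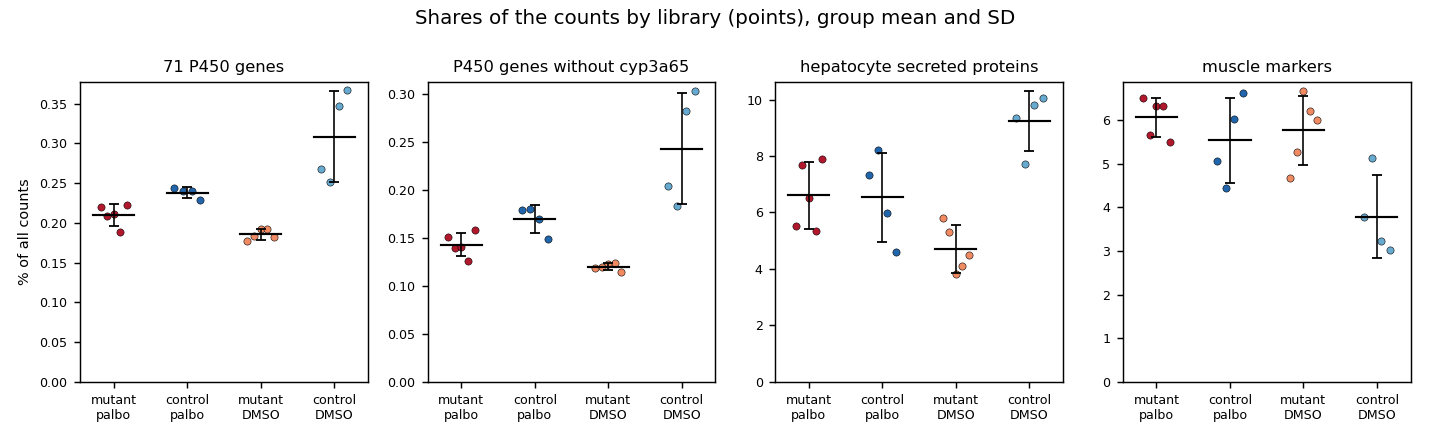
Share of all counts in each library (points) taken by the 71 P450 genes, by the P450 genes without cyp3a65, by hepatocyte secreted proteins and by muscle markers, in %, with group mean (bar) and SD (error bar); groups run from mutant palbociclib at the left to control DMSO at the right. Control DMSO libraries hold the highest P450 shares, 0.251 to 0.367%, and mutant DMSO libraries the lowest, 0.177 to 0.193%.

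The comparison of mutant with control livers in DMSO asks what the uhrf1 mutation does without the drug, and here many P450 genes fell. At a false discovery rate of 0.05, 26 of the 55 tested members were lower in mutant livers and 2 were higher, against 10.4% of all tested genes lower and 6.72% higher. The median log2 fold change of the members was -0.99, against 0.06 over all tested genes, and 44 of the 55 were below zero, as were 44.9% of all tested genes. The fall took in all 3 tested members of CYP4, 5 of 7 of CYP27, 14 of 28 of CYP2, 1 of 4 of CYP3, 1 of 2 of CYP7 and the single members of CYP1 and CYP8. No tested member of CYP11, CYP17, CYP20, CYP26 or CYP46 passed. Without control DMSO libraries 3 and 4, 15 of 58 tested members were lower and 1 higher, against 957 and 474 of all 17880 genes tested there. By family, 9 of 30 tested in CYP2, 2 of 3 in CYP4, 2 of 7 in CYP27, 1 of 4 in CYP3 and the CYP1 gene fell. The CYP7 and CYP8 calls were lost, and 1 CYP3 gene rose. Of the 28 calls, 16 held and 12 were lost in that setting. In all, the groups of 22 members did not overlap with mutants lower, and those of 2 with mutants higher, against 8.24% and 5.83% of all tested genes. The 2 higher members were cyp3c3 and cyp2aa11, the latter from few reads as given below. Scaling to the hepatocyte genes moves the median of all genes to 1.40. It left 4 members lower and put 21 higher, against 173 and 14255 of all 17048 tested genes. The member median was then 0.42, still below that of all genes. With the muscle share as a covariate 10 members were lower and 3 higher, against 527 and 638 of all tested genes. There the member median was -0.34 against 0.01. The covariate had a common slope for all libraries, and the muscle share averaged 5.77% in mutant DMSO and 3.79% in control DMSO livers. This fit therefore cannot fully separate the muscle share from the group.

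**Figure D2:**
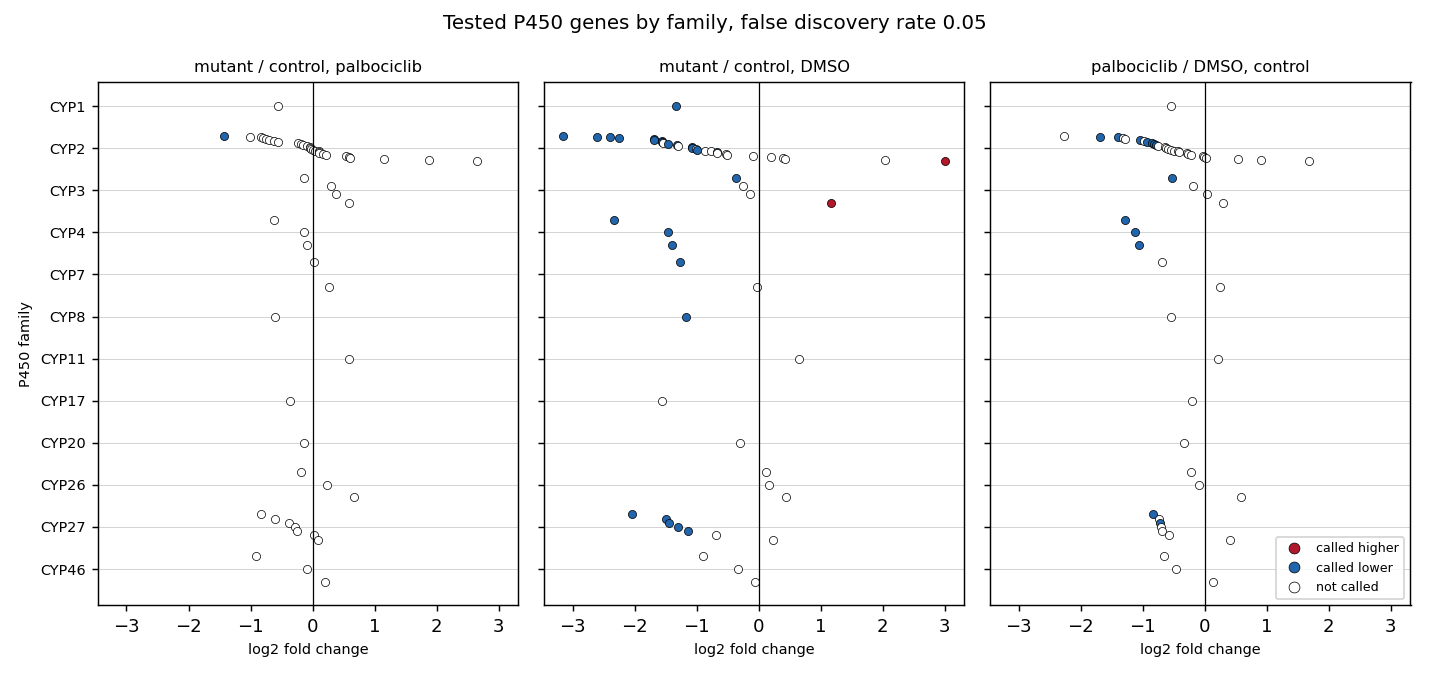
Log2 fold change of each tested P450 gene (point) by family number, for mutant over control in palbociclib, mutant over control in DMSO, and palbociclib over DMSO in control livers; filled points passed a false discovery rate of 0.05. In DMSO 26 genes were lower and 2 higher in mutants, in palbociclib 1 was lower, and palbociclib lowered 13 in controls. These 13 became 1 without control DMSO libraries 3 and 4, and 0 with the muscle share as a covariate. Over all tested genes 42 and 17 were lower in those settings. Under scaling to hepatocyte genes the split in DMSO turns to 4 lower and 21 higher. In that setting 173 of all 17048 tested genes were lower and 14255 higher.

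Most CYP2 members of fish belong to subfamilies that mammals lack, and few have a known substrate. The 3 tested cyp2ad genes all fell in mutant DMSO livers. cyp2ad2 was at 37.5, 38.1, 49, 40.4 and 46.6 CPM in mutant DMSO livers, against 210.2, 175, 525 and 591 CPM in control DMSO livers. All mutant libraries lay below all control libraries, and the control libraries themselves differed widely, with libraries 3 and 4 highest. The log2 fold change was -3.15 ± 0.32 (SE; adjusted p = 6.26e-06), and it was -2.22 without control DMSO libraries 3 and 4. cyp2ad6 was at 20.6, 17.7, 20.8, 18.4 and 21.9 CPM in mutant DMSO livers, against 114, 86, 92.8 and 126 CPM in control DMSO livers. Here the control libraries were closer together, and the log2 fold change was -2.39 ± 0.22 (adjusted p = 1.21e-07). cyp2ad3 was at 62.9, 56.7, 79.3, 69.2 and 75.1 CPM in mutant DMSO livers, against 198, 127, 233 and 250.4 CPM in control DMSO livers, again without overlap (-1.56 ± 0.17 on the log2 scale, adjusted p = 2.18e-06). Under scaling to hepatocyte genes cyp2ad3 was at -0.12 and did not pass.

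cyp2n13, of a subfamily whose killifish members act on arachidonic acid, was at 70.7, 71.6, 82.5, 95.5 and 86.2 CPM in mutant DMSO livers, against 275, 193, 516 and 560.0 CPM in control DMSO livers. Its groups did not overlap, with control libraries 3 and 4 again highest (-2.25 ± 0.28, adjusted p = 4.22e-05). cyp2p8 was at 45.9, 53.2, 40.1, 54.8 and 38.1 CPM in mutant DMSO livers, against 101, 76.2, 136 and 152 CPM in control DMSO livers. The highest mutant library was below the lowest control library (-1.32 ± 0.18, adjusted p = 4.94e-06), but under scaling to hepatocyte genes the value was 0.08 and did not pass (adjusted p = 0.753). Of the other cyp2p genes, cyp2p6 (-0.99) and cyp2p7 (-1.07) fell, while cyp2p9 (-0.77) and cyp2p10 (-0.67) did not pass. cyp2p7 lost its call without control DMSO library 4, and both cyp2p6 (-0.69, adjusted p = 0.0556) and cyp2p7 (-0.38, adjusted p = 0.66) did without libraries 3 and 4. Under scaling to hepatocyte genes they turned to 0.46 and 0.34, and neither passed.

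The cyp2aa genes were split. cyp2aa1 was at 15.2, 12.2, 14.3, 16.6 and 10.8 CPM in mutant DMSO livers, against 44, 28.7, 62.2 and 45.5 CPM in control DMSO livers. The groups did not overlap, and the log2 fold change was -1.69 ± 0.21 (adjusted p = 4.89e-08), but under scaling to hepatocyte genes it was -0.29 and did not pass. cyp2aa12 (-1.69) and cyp2aa2 (-2.61), named after their values were seen, fell as well, cyp2aa2 not without control DMSO libraries 3 and 4 (-1.86, adjusted p = 0.0966). cyp2aa2 had too few counts to be tested in the fit of the DMSO libraries alone. cyp2aa4 (0.20), cyp2aa8 (0.42) and cyp2aa9 (0.38) did not pass. cyp2aa11, also named after its values were seen, was called higher from few reads: 30 counts over the 5 mutant DMSO libraries and 3 over the 4 control DMSO libraries. In the fit of the DMSO libraries alone it had too few counts to be tested. The main fit also held the mutant palbociclib libraries, where it had 75 counts. The mutant to control ratio of its summed counts, each scaled by TMM-adjusted library size, was 9.39, with an exact 95% interval of 2.92 to 48.1 that covers counting error only. Its call was lost without control DMSO library 2 or 3, and without libraries 3 and 4 together. Without mutant DMSO library 2 it was not tested. cyp2aa7, likewise named after its values were seen, was at 29.6, 22.4, 4.60, 2.48 and 5.77 CPM in mutant DMSO livers, against 3.04, 1.70, 1.99 and 5.97 CPM in control DMSO livers. Mutant DMSO libraries 1 and 2 stood far above the other mutant libraries, which lay near the controls, and it was not called (2.03 ± 0.85, adjusted p = 0.127).

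Among the remaining CYP2 genes, cyp2y3, named after its values were seen, was at 112, 112, 91.7, 101 and 100.5 CPM in mutant DMSO livers, against 249.6, 193, 373 and 402 CPM in control DMSO livers. It fell without overlap (-1.56 ± 0.18, adjusted p = 6.83e-06), but under scaling to hepatocyte genes it was at -0.15 and did not pass. cyp2k19 (-1.07), cyp2x7 (-1.46) and cyp2x9 (-0.68) also fell, the last of them with overlapping groups and not without control DMSO library 3 or 4. Without both libraries cyp2x7 (-1.21, adjusted p = 0.0878) lost its call as well. Under scaling to hepatocyte genes cyp2k19 and cyp2x9 turned to 0.30 and 0.72, and only cyp2x9 passed there. cyp2k8 (-1.29), cyp2k16 (-1.02), cyp2k18 (-0.10), cyp2x8 (-1.54), cyp2v1 (-0.53), cyp2j20 (-0.51) and CYP2U1 (-0.86), which in mammals hydroxylates fatty acids, did not pass. cyp1d1, a CYP1 gene that is a pseudogene in humans, was at 11, 5.53, 5.68, 11.7 and 9.62 CPM in mutant DMSO livers, against 24.6, 18.5, 20.9 and 24.4 CPM in control DMSO livers. It fell without overlap (-1.34 ± 0.25, adjusted p = 0.000104), though scaling to hepatocyte genes brought it to 0.0039.

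**Figure D3:**
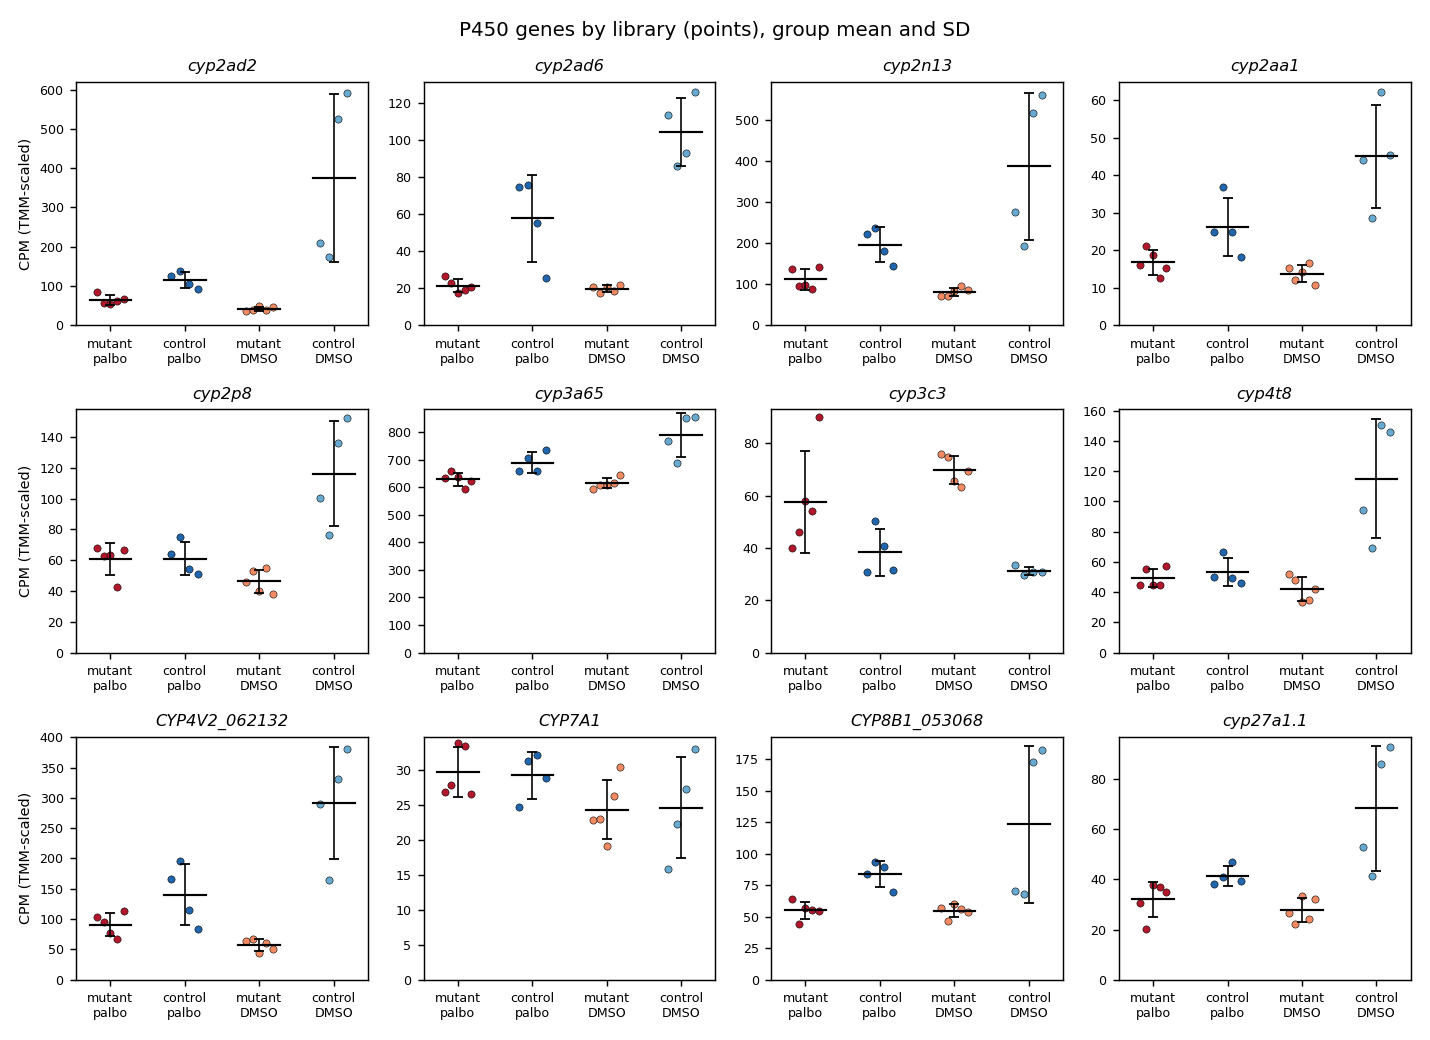
CPM of 12 P450 genes in each library (points), with group mean (bar) and SD (error bar); in every panel the groups run from mutant palbociclib and control palbociclib to mutant DMSO and control DMSO. cyp2ad2 lies between 37.5 and 49.0 CPM in mutant DMSO and between 175 and 591 CPM in control DMSO livers, CYP7A1 overlaps in all groups, and cyp3c3 is higher in mutant DMSO than in control DMSO livers.

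Along the chromosome many P450 genes sit in runs of neighbours. By symbol, 63 of the 71 members were found among the protein-coding genes of the RefSeq annotation of assembly GRCz12tu, used here for gene order only. Of these, 43 lay in 7 runs with at most 2 other protein-coding genes between members, and genes of other types were not considered. The run from cyp2n13 through cyp2ad6, cyp2ad2, cyp2v1, cyp2ad3, the 5 cyp2p genes and cyp2j20 held 11 members with no other protein-coding gene between them. All 11 had log2 fold changes below zero in mutant DMSO against control DMSO livers, from -3.15 to -0.51. So did 44 of the 55 tested members and 44.9% of all tested genes. Of the run, cyp2v1, cyp2p9, cyp2p10 and cyp2j20 did not pass. Under scaling to hepatocyte genes cyp2p6, cyp2p7 and cyp2p8 turned to 0.46, 0.34 and 0.08, and none of them passed. The run of cyp2aa genes held both signs: cyp2aa12 was at -1.69, and the next members along it, cyp2aa7 and cyp2aa11, were at 2.03 and 3.01. cyp2aa7 was not called and its groups overlapped, and cyp2aa11 was called from 30 counts against 3. Further along, cyp2aa1 and cyp2aa2 were at -1.69 and -2.61. Neighbours in these runs are close relatives, and no source used here states how reads matching several of them were counted, so reads may be split between copies and single values in a run are uncertain.

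**Figure D4:**
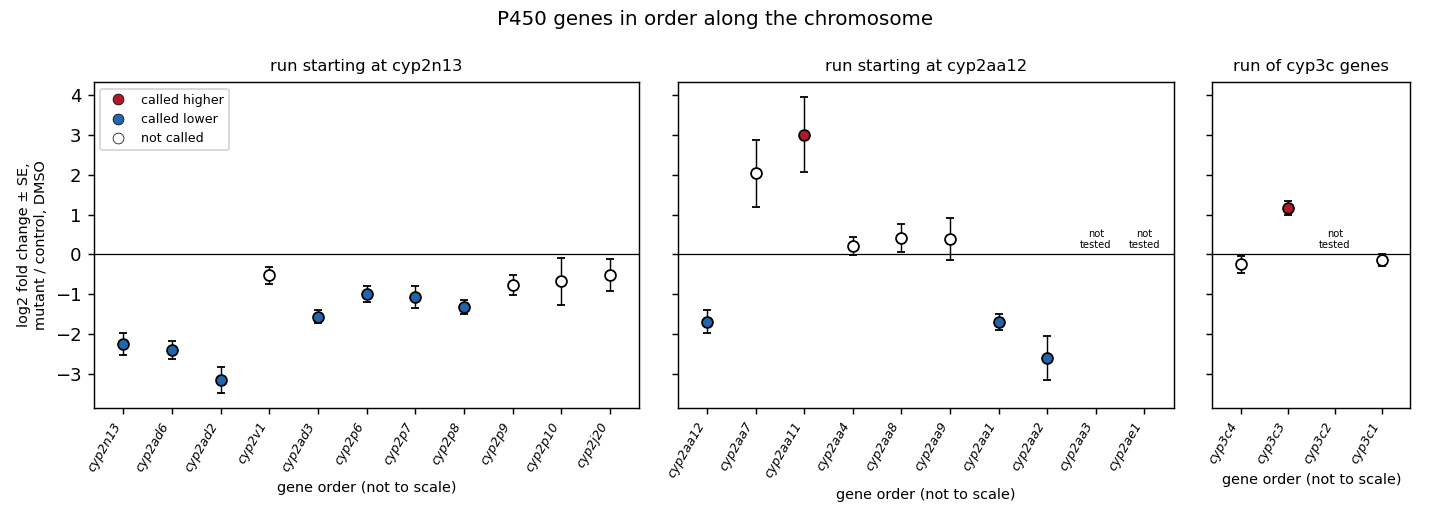
Log2 fold change (± SE) of mutant over control in DMSO for P450 genes in the order they hold along the chromosome, for the runs starting at cyp2n13, at cyp2aa12 and at cyp3c4; distances are not to scale and filled points passed a false discovery rate of 0.05. All 11 genes of the first run lie below zero, as do 44 of all 55 tested P450 genes. The second holds genes from -2.61 to 3.01, the latter cyp2aa11 from 30 counts against 3.

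Family CYP3 had 1 gene lower, 1 higher and 2 that did not pass. cyp3a65, the zebrafish relative of human CYP3A4 and a drug-metabolizing enzyme of liver and gut, was at 595, 608, 606, 615 and 643 CPM in mutant DMSO livers, against 766, 688, 849 and 853 CPM in control DMSO livers. The groups did not overlap, but the difference was small (-0.36 ± 0.07, adjusted p = 0.000265), and its direction depended on scaling: the log2 fold change was 0.0056 with library size alone and 1.00 under scaling to hepatocyte genes. Transcripts of 25 intestine markers took 0.317 to 0.405% of the counts in mutant DMSO and 0.298 to 0.352% in control DMSO libraries; their part in the cyp3a65 level was not tested. cyp3c3, of a subfamily found in fish, was at 76.1, 74.8, 65.8, 63.5 and 69.3 CPM in mutant DMSO livers, against 33.5, 29.6, 30.8 and 30.9 CPM in control DMSO livers. It rose without overlap (1.16 ± 0.17, adjusted p = 4.6e-06), and it was higher under each of the 3 scalings tried. Its neighbour cyp3c4 (-0.25) and, further along the run, cyp3c1 (-0.14) did not pass. Its other neighbour, cyp3c2, had too few counts to be tested, with 22 counts in mutant DMSO and 58 in control DMSO livers.

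Family CYP4 holds fatty acid hydroxylases. cyp4t8 was at 52.1, 47.7, 33.3, 34.7 and 42 CPM in mutant DMSO livers, against 94.6, 69.4, 150.5 and 146 CPM in control DMSO livers. The groups did not overlap (-1.46 ± 0.19, adjusted p = 7.27e-06), but under scaling to hepatocyte genes the value was -0.08 and did not pass. The symbol CYP4V2, named for a human fatty acid hydroxylase whose loss causes a retinal dystrophy, belongs to 2 tested gene IDs, here told apart by the end of the ID. CYP4V2_062132 was at 64.5, 66.9, 44.1, 61 and 50.8 CPM in mutant DMSO livers, against 289.8, 164, 332 and 380.0 CPM in control DMSO livers. It fell without overlap (-2.34 ± 0.27, adjusted p = 2.03e-05), as did CYP4V2_061585 (-1.39, adjusted p = 0.00939). The call of CYP4V2_061585 was lost without control DMSO libraries 3 and 4 (-1.11, adjusted p = 0.157), whereas that of CYP4V2_062132 held (-2.01, adjusted p = 0.000941).

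The bile acid P450 genes did not move as a block. CYP7A1, the rate-limiting enzyme of the classical route from cholesterol to bile acids, was at 22.8, 23, 19.2, 26.3 and 30.4 CPM in mutant DMSO livers, against 15.9, 22.3, 27.4 and 33 CPM in control DMSO livers. The groups overlapped, with a log2 fold change of -0.02 ± 0.18 (adjusted p = 0.958). CYP7B1, the oxysterol hydroxylase of the alternative route, was at 5.92, 6.40, 10.3, 6.70 and 6.54 CPM in mutant DMSO livers, against 14, 8.98, 23.4 and 22.9 CPM in control DMSO livers. It was called lower (-1.26 ± 0.29, adjusted p = 0.00145), although mutant library 3 lay above control library 2, and the call was lost without control DMSO libraries 3 and 4 (-0.71, adjusted p = 0.281). CYP8B1_053068, the sterol hydroxylase that in mammals sets the balance between cholic and other bile acids, was at 57.2, 46.5, 60.1, 56.3 and 53.5 CPM in mutant DMSO livers, against 70.5, 67.7, 173 and 182 CPM in control DMSO livers. The groups did not overlap (-1.17 ± 0.26, adjusted p = 0.00495), but control libraries 1 and 2 were close to the mutants, and without libraries 3 and 4 the log2 fold change was -0.36 (adjusted p = 0.145).

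Family CYP27 holds mitochondrial sterol hydroxylases, and 5 of the 6 tested CYP27A IDs fell. cyp27a1.1 was at 26.8, 22.4, 33.6, 24.3 and 32.3 CPM in mutant DMSO livers, against 52.9, 41.5, 86.1 and 92.7 CPM in control DMSO livers. The groups did not overlap (-1.29 ± 0.20, adjusted p = 2.25e-05). cyp27a2 was at 19.7, 20.9, 14.6, 14.9 and 19.6 CPM in mutant DMSO livers, against 43.5, 26.7, 41.8 and 45.7 CPM in control DMSO livers, also without overlap (-1.14 ± 0.19, adjusted p = 1.82e-05). cyp27a3 (-1.44), CYP27A1_088013 (-1.49) and CYP27A1_069186 (-2.04) fell too, whereas CYP27A1_055159 (-0.69) did not pass. The groups of cyp27a3 and of CYP27A1_088013 overlapped. With control DMSO libraries 3 and 4 left out, the calls of cyp27a3 (-0.68, adjusted p = 0.266), CYP27A1_088013 (-0.999, adjusted p = 0.167) and CYP27A1_069186 (-1.88, adjusted p = 0.197) were lost. The call of CYP27A1_069186 held in only 4 of the 9 fits that left out 1 library. In the fit of the DMSO libraries alone CYP27A1_069186 had too few counts to be tested. CYP27C1, a retinol desaturase in zebrafish, was at 0.22 and did not pass. Under scaling to hepatocyte genes cyp27a1.1, cyp27a2, CYP7B1 and CYP8B1_053068 turned to 0.15, 0.22, 0.20 and 0.29, and none of them passed.

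No tested member of the families that act on retinoic acid, steroid hormones and brain cholesterol passed. CYP26B1, which breaks down retinoic acid, was at 21.7, 20.1, 19.2, 34.2 and 18.9 CPM in mutant DMSO livers, against 20.1, 26.2, 17.7 and 18.2 CPM in control DMSO livers. The groups overlapped (0.16 ± 0.20, adjusted p = 0.668), and CYP26A1 (0.12) and CYP26C1 (0.44) did not pass. cyp46a1.2, of the cholesterol hydroxylases known from mammalian brain, was at 31.6, 16, 11.6, 16.1 and 19.2 CPM in mutant DMSO livers, against 36.3, 23.8, 32.6 and 48.8 CPM in control DMSO livers. Its groups overlapped (-0.90 ± 0.32, adjusted p = 0.0591), as did those of cyp46a1.1 (-0.05) and cyp46a1.3 (-0.33). cyp11c1, which makes cortisol in the fish interrenal gland, reached at most 4.36 CPM in mutant DMSO and 2.08 CPM in control DMSO libraries. cyp17a2, a fish steroid hydroxylase, reached at most 1.24 CPM in mutant DMSO and 4.98 CPM in control DMSO libraries, and neither passed. The orphan gene CYP20A1 was at 16.1, 31.1, 19.8, 18.1 and 23.9 CPM in mutant DMSO livers, against 24.1, 20.4, 30.6 and 32.2 CPM in control DMSO livers, with overlap (-0.30 ± 0.22, adjusted p = 0.402).

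The 16 members with too few counts to be tested held between 21 (cyp39a1) and 116 (CYP17A1) counts over all libraries. They were cyp2aa3, cyp2ae1, cyp2k6, cyp2k17, cyp2k20, cyp2k21, cyp2x6, cyp2x10.1, cyp2x10.2, cyp3c2, cyp4f3, CYP11A1_092696, CYP17A1, cyp21a2, cyp39a1 and cyp46a1.5. cyp2x6 had 0 counts in mutant palbociclib, 6 in control palbociclib, 3 in mutant DMSO and 30 in control DMSO livers; the scaled ratio of mutant DMSO to control DMSO was 0.0939 (exact 95% interval 0.0183 to 0.302, counting error only). cyp3c2 had 13, 10, 22 and 58 counts in the same order. The 6 IDs under 10 counts, not members, were CYP11A1_002347, CYP19A1, cyp2k22, cyp2k31, CYP8B1_097556 and CYP8B1_097559.

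Several partners of the P450 enzymes fell too. Of 13 tested electron donors and partners, 6 fell in mutant DMSO livers and 0 rose, with a median of -0.68; over all tested genes 10.4% fell and 6.72% rose, with a median of 0.06. POR_059035, the oxidoreductase that serves P450 enzymes in the endoplasmic reticulum, averaged 358 CPM in mutant palbociclib, 499.5 in control palbociclib, 313 in mutant DMSO and 691 in control DMSO livers (-1.14 in mutant DMSO against control DMSO, adjusted p = 0.000213). The mitochondrial chain of FDXR (-1.05) and fdx1 (-0.95), the cytochrome b5 gene CYB5A (-0.98), the cytochrome b5 reductase gene CYB5R2 (-1.73), and the heme-binding partner PGRMC1 (-1.40) fell as well. Of 11 heme genes 3 fell and 0 rose, with a median of -0.43: ALAS1, the first enzyme of heme synthesis (-0.58), FECH, which inserts the iron (-1.52), and blvrb, a biliverdin reductase (-0.62). With control DMSO libraries 3 and 4 left out, 6 electron donors and 2 heme genes fell, against 957 of all 17880 genes tested there. Under scaling to hepatocyte genes, which moves the median of all genes to 1.40, the medians of the 2 lists turned to 0.73 and 0.95.

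Of 36 nuclear receptors and liver transcription factors, 16 fell and 1, CEBPA (0.46), rose, with a median of -0.41. Over all tested genes 10.4% fell and 6.72% rose, with a median of 0.06. NR1I2, the pregnane X receptor, averaged 19.3 CPM in mutant palbociclib, 27 in control palbociclib, 17 in mutant DMSO and 55.1 in control DMSO livers (-1.70, adjusted p = 2.18e-05 in mutant DMSO against control DMSO). NR5A2, a receptor that drives bile acid genes in mammals (-1.46), nr5a5 (-1.41) and HNF4A (-0.93) fell as well. Of 21 bile acid genes outside the P450 family, 14 fell and 1 rose, with a median of -1.15. The fall took in the uptake carrier slco1d1 (-2.33), the peroxisomal enzymes scp2a (-1.64) and HSD17B4 (-1.39), and FGF19 (-2.67), a hormone that in mammals represses CYP7A1; klb, a co-receptor of that hormone, rose (1.65). Of 15 steroid and retinoid genes outside the family, 5 fell, RBP4 among them (-1.66), and 1 rose, ALDH1A2, which makes retinoic acid (0.59), with a median of -0.20. For scale, 26 of the 38 hepatocyte secreted proteins fell, with a median of -1.44, and 18 of the 28 muscle markers rose, with a median of 0.28; without control DMSO libraries 3 and 4, 19 of these hepatocyte genes fell and 0 muscle markers rose. In that setting 6 of the 36 nuclear receptors and liver factors fell and 1 rose, and 9 of the 21 bile acid genes and 3 of the 15 steroid and retinoid genes fell with 0 higher. Over all 17880 genes tested there 957 fell and 474 rose. Under scaling to hepatocyte genes the medians of these 3 lists turned to 0.95, 0.22 and 1.04, against 1.40 over all genes. The part of this shift in the results for these lists was not tested.

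Under palbociclib the test set 1 P450 gene of mutant livers apart from controls, the fish gene cyp2ad6. Of the 55 tested members 1 was lower in mutants and 0 higher, against 0.416% and 0.634% of all tested genes, and the member median was -0.09, against 0.03 over all tested genes. The 38 hepatocyte secreted proteins had a median of -0.07, with 1 lower and 0 higher. The 28 muscle markers had a median of 0.05, with 0 called in either direction. Their part in the P450 results was not tested. At an unadjusted p under 0.05 there were 15 of the 55 members, in either direction, against 9.71% of all tested genes. DESeq2 called 5 members lower and 1 higher, against 170 and 166 of all 17048 tested genes. The fit of the compared groups alone called 4 lower, cyp2ad6 not among them, against 93 of 15625 genes. cyp2ad6 was at 26.7, 22.9, 17.4, 19.2 and 20.8 CPM in mutant palbociclib livers, against 74.8, 75.8, 55.4 and 25.7 CPM in control palbociclib livers. Control library 5 lay within the range of the mutants, whereas the other 3 were well above them (-1.43 ± 0.22, adjusted p = 0.00137).

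In 6 members that did not pass, all mutant libraries still lay below all control libraries, as they did in 1.43% of all tested genes; 0 members lay apart with mutants higher, against 1.91%. cyp2ad3 was at 106, 83.6, 76.6, 79.6 and 93.3 CPM in mutant palbociclib livers, against 154, 183, 118 and 118 CPM in control palbociclib livers (-0.70 ± 0.17, adjusted p = 0.0578). cyp2ad2 was at 84.8, 56.6, 54.7, 62.3 and 67.6 CPM in mutant palbociclib livers, against 126, 139.6, 106 and 92.9 CPM in control palbociclib livers (-0.83 ± 0.31, adjusted p = 0.348). cyp2n13 was at 137, 95.3, 97.4, 88.9 and 143 CPM in mutant palbociclib livers, against 221, 237, 182 and 143 CPM in control palbociclib livers (-0.80 ± 0.28, adjusted p = 0.287). In each of these the mutant libraries were all below the control libraries, for cyp2n13 narrowly (142.5 CPM in the highest mutant and 143.1 CPM in the lowest control library), and the others were cyp2y3 (-0.56), CYP8B1_053068 (-0.61) and cyp27a1.1 (-0.38). cyp3c3 was at 39.9, 46.3, 58.1, 54 and 90.0 CPM in mutant palbociclib livers, against 30.9, 50.2, 40.7 and 31.6 CPM in control palbociclib livers, with overlap (0.59 ± 0.17, adjusted p = 0.0874). cyp2p8 was at 68.2, 62.5, 63.5, 42.4 and 66.7 CPM in mutant palbociclib livers, against 63.8, 74.8, 54.4 and 50.8 CPM in control palbociclib livers. cyp4t8 was at 44.9, 55.2, 45, 44.8 and 57.1 CPM in mutant palbociclib livers, against 50.1, 66.6, 49.1 and 46.2 CPM in control palbociclib livers. Both showed wide overlap, with log2 fold changes of -0.00 ± 0.18 and -0.10 ± 0.19.

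Among the lists, FDXR (-0.89), ALAS1 (-0.83), FECH (-1.23), FGF19 (-3.22), HSD17B4 (-0.62), scp2a (-0.69) and slc27a2a (-1.05), an acyl-CoA synthetase, were lower in mutants under palbociclib. They were 1 of 13 electron donors, 2 of 11 heme genes and 4 of 21 bile acid genes, and 0 rose in these lists. Over all tested genes 0.416% were lower and 0.634% higher. ALAS1 averaged 418 CPM in mutant palbociclib, 740.4 in control palbociclib, 418 in mutant DMSO and 627 in control DMSO livers. FGF19 averaged 0.636 CPM in mutant palbociclib, 6.00 in control palbociclib, 1.39 in mutant DMSO and 9.06 in control DMSO livers. FGF19 thus had few reads in the mutant groups, and the size of its fold changes is uncertain. CYP7A1, beside it, was at 26.9, 27.9, 33.9, 33.5 and 26.6 CPM in mutant palbociclib livers, against 24.7, 31.3, 32.2 and 28.9 CPM in control palbociclib livers (0.02 ± 0.18, adjusted p = 0.994). No nuclear receptor or liver factor and no steroid or retinoid gene passed here.

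In mutant livers, palbociclib against DMSO changed 0 of the 55 members in either direction by edgeR and 0 by DESeq2, against 0.0411% of all tested genes higher and 0.499% lower. The member median was 0.26, against -0.00 over all tested genes, 41 of 55 lay above zero, against 49.5% of all tested genes, and 11 had an unadjusted p under 0.05, against 8.81%. The median of the hepatocyte secreted proteins was 0.49. CYP7B1 was at 13.2, 17, 11.7, 7.63 and 14.8 CPM in mutant palbociclib livers, against 5.92, 6.40, 10.3, 6.70 and 6.54 CPM in mutant DMSO livers (0.84 ± 0.29, adjusted p = 0.264). cyp2ad2 was at 84.8, 56.6, 54.7, 62.3 and 67.6 CPM in mutant palbociclib livers, against 37.5, 38.1, 49, 40.4 and 46.6 CPM in mutant DMSO livers (0.63 ± 0.31, adjusted p = 0.597). CYP7B1 overlapped and neither passed; cyp2ad2 did not overlap, the 1 member of 55 higher without overlap here, against 0.751% of all tested genes, with 0 members lower without overlap, against 1.54%. With the muscle share as a covariate 5 members passed as higher, against 206 of all 17048 tested genes. In the fit of the compared groups alone 3 did, against 67 of 15440 genes.

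In control livers, palbociclib lowered P450 genes, but the count depended on single libraries of both groups. Of the 55 members 13 fell and 0 rose, against 4.33% of all tested genes lower and 1.38% higher, with a median of -0.55 against -0.02. Overlap was absent in 7 members that were lower and 1, cyp2aa9, that was higher (0.90, not called), against 5.55% and 3.87% of all tested genes. The 13 that fell were 7 CYP2 genes, cyp3c1, the 3 tested CYP4 genes, cyp27a1.1 and cyp27a2. Without control DMSO libraries 3 and 4 only cyp2ad2 passed, without control DMSO library 2 there were 23, without library 3 or 4 alone 4 and 3, and without control palbociclib library 1, 4 or 5 there were 7, 5 and 4. Over all tested genes 42 fell without control DMSO libraries 3 and 4, 1411 without library 2, and 263 and 241 without library 3 or 4 alone. Without control palbociclib library 1, 4 or 5 these were 558, 284 and 266, against 738 in the main fit. With the muscle share as a covariate 0 passed in edgeR, with 7 members at an unadjusted p under 0.05, and 17 of all 17048 tested genes were lower and 32 higher. Under scaling to hepatocyte genes 1 member was lower and 8 higher, against 50 and 6423 of all tested genes. cyp2aa1 and cyp27a1.1 were then at 0.0030 and 0.18, neither called. With library size alone 8 members were lower, against 393 of all tested genes.

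cyp4t8 was at 50.1, 66.6, 49.1 and 46.2 CPM in control palbociclib livers, against 94.6, 69.4, 150.5 and 146 CPM in control DMSO livers. The groups did not overlap (-1.12 ± 0.20, adjusted p = 0.00226). cyp2p8 was at 63.8, 74.8, 54.4 and 50.8 CPM in control palbociclib livers, against 101, 76.2, 136 and 152 CPM in control DMSO livers. The highest treated library was just below the lowest untreated one (-0.93 ± 0.18, adjusted p = 0.00392). cyp2ad2 was at 126, 139.6, 106 and 92.9 CPM in control palbociclib livers, against 210.2, 175, 525 and 591 CPM in control DMSO livers. All treated libraries were lower (-1.69 ± 0.33, adjusted p = 0.0094), and without control DMSO libraries 3 and 4 the log2 fold change was -0.73 (adjusted p = 0.0166).

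cyp27a2 was at 26.2, 26.5, 19.1 and 16.7 CPM in control palbociclib livers, against 43.5, 26.7, 41.8 and 45.7 CPM in control DMSO livers. The groups only just failed to overlap (-0.83 ± 0.20, adjusted p = 0.00942). cyp2aa1 was at 24.9, 36.9, 24.8 and 18.4 CPM in control palbociclib livers, against 44, 28.7, 62.2 and 45.5 CPM in control DMSO livers, and treated library 2 lay above untreated library 2 (-0.79 ± 0.21, adjusted p = 0.0185). CYP7A1 (0.25), CYP7B1 (-0.69), CYP8B1_053068 (-0.55), cyp3a65 (-0.20), cyp3c3 (0.29) and cyp1d1 (-0.55) did not pass. Of the P450 partners and regulators, CYB5R2 (-1.36), FECH (-1.07), and 8 of 36 nuclear receptors and liver factors fell with palbociclib, among them NR1I2 (-1.04), NR5A2 (-1.26) and nr5a5 (-1.65). Of the bile acid genes 5 of 21 fell, HSD3B7 among them (-0.80), and 2 of 15 steroid and retinoid genes. Over all tested genes 4.33% fell and 1.38% rose. Leaving out control DMSO libraries 3 and 4, 1 nuclear receptor or liver factor, 1 bile acid gene and 0 of the electron donors, heme genes and steroid and retinoid genes fell, and 1 heme gene rose. Over all 17880 genes tested there 42 fell and 4 rose. Beside the calls on all libraries, 21 of the 28 muscle markers rose and 5 of the 38 hepatocyte secreted proteins fell, with medians of 0.31 and -0.75; without those 2 libraries 0 muscle markers rose and 2 hepatocyte genes fell. Their part in the P450 differences was not tested.

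The interaction asks whether the mutant effect differed between palbociclib and DMSO; a positive value means that mutants lay higher relative to controls under palbociclib. It shares the control DMSO libraries with the comparisons above. Of the 55 members 6 had a positive interaction and 0 a negative one, against 1.74% and 0.252% of all tested genes, with a median of 0.85 against -0.00. The hepatocyte secreted proteins had a median interaction of 1.27, with all 38 above zero and 6 called, and the muscle markers a median of -0.22, with 27 of 28 below zero and 0 called; their part in the P450 interactions was not tested. cyp2ad2 had 2.32 ± 0.45 (adjusted p = 0.015), from log2 fold changes of -0.83 in palbociclib and -3.15 in DMSO. CYP4V2_062132 had 1.72 ± 0.38 (adjusted p = 0.034), from -0.62 in palbociclib and -2.34 in DMSO. CYP7B1 had 1.53 ± 0.41 (adjusted p = 0.0393), from 0.27 and -1.26 in the same order. cyp4t8 (1.36 ± 0.27, adjusted p = 0.00895), cyp2p8 (1.32 ± 0.25, adjusted p = 0.00464) and cyp2aa1 (1.06 ± 0.29, adjusted p = 0.0444) completed the 6.

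cyp2ad2, cyp4t8 and cyp2p8 kept the call in each of the 18 fits that left out 1 library, whereas CYP4V2_062132 kept it in 7, CYP7B1 in 5 and cyp2aa1 in 4. Without control DMSO libraries 3 and 4, 2 members passed, cyp2ad2 (1.37) and cyp2p8 (0.94), against 59 of all 17880 genes tested there with a positive interaction. Without control DMSO library 2 there were 17, against 718 of 17426 genes. With the muscle share as a covariate 3 passed, against 113 of all 17048 tested genes with a positive interaction, and cyp2ad2, CYP7B1 and cyp2aa1 lost the call. Under scaling to hepatocyte genes 1 member was positive and 12 negative, against 13 and 10465 of all 17048 tested genes. In that setting cyp2aa1 and cyp2p8 turned to -0.25 and -0.02, and neither passed. cyp4t8 was at 0.03 there and did not pass either. Of the lists, NR5A2 (1.23), nr5a5 (1.61) and 6 of 21 bile acid genes, slco1d1 (1.65) and HSD3B7 (1.15) among them, had positive interactions. So did EPHX2 (1.03) and RBP4 (1.43). No electron donor and no heme gene passed. Over all tested genes 1.74% had a positive and 0.252% a negative interaction. Without control DMSO libraries 3 and 4, 1 nuclear receptor or liver factor, 2 bile acid genes and 0 steroid and retinoid genes had positive interactions, and 1 heme gene a negative one. Over all 17880 genes tested there 59 had a positive and 12 a negative interaction.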

How the data were processed

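The authors deposited raw counts per gene for each of the 18 libraries. The submitters' processing notes name FastQC 0.11.5 and Trimmomatic 0.36 for quality control and trimming. Not given in the sources used here were the aligner, counter, strand setting, genome build and annotation. Without a stated strand setting, reads of a gene and of an antisense neighbour could not be told apart. Gene IDs were paired with symbols by the reference table; 26269 of 32105 matched, and the others took 12.2% of the counts.

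Genes kept by filterByExpr (17048, with 99.6% of the counts) were scaled with TMM factors (0.762 to 1.16) and fitted with a mean per group over all 18 libraries with edgeR 4.0.16 (robust quasi-likelihood, R 4.3.3). Contrasts of that fit gave the 4 pairwise comparisons and the interaction. Calls used a Benjamini-Hochberg adjusted p of 0.05 over all 17048 genes and no minimum change. An SE is the log2 fold change divided by the root of its F statistic. The common biological coefficient of variation was 0.218. The scripts were tested on simulated data. No 2 libraries held identical counts; as the labels name no clutch for a pool, p-values speak only of the spread among these pools, part of which may be technical.

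The members and lists were chosen with earlier results of these data known. Genes described in full were the 5 called members with the smallest adjusted p and a group mean of at least 5 CPM in each pairwise comparison, those called in the interaction, and the member with the highest mean CPM of each family. The alternatives were library size alone, scaling to hepatocyte secreted protein genes, a minimum of 10 counts over all libraries, the muscle share as a covariate, a replicate block, the compared groups alone, DESeq2 1.42.0, leaving out each library, and, chosen after seeing the data, leaving out control DMSO libraries 3 and 4 (for the P450 genes, their families and the lists). The muscle covariate had a common slope for all libraries. As the mean muscle share differed between groups, it cannot be fully separated from them. Figures were drawn with matplotlib 3.10.9.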

Additional observations from a re-analysis of the deposited data

Results flagged for a closer look

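Of the 55 tested P450 genes 6 had a mutant effect that differed between palbociclib and DMSO in edgeR's test of the interaction, all positive, against 1.74% of all tested genes. On the log2 scale the difference was 2.32 for cyp2ad2, 1.72 for CYP4V2_062132, 1.53 for CYP7B1, 1.36 for cyp4t8, 1.32 for cyp2p8 and 1.06 for cyp2aa1. Of the 18 fits that left out 1 library, CYP4V2_062132 kept the call in 7, CYP7B1 in 5 and cyp2aa1 in 4, and the others in all. Without control DMSO libraries 3 and 4 only cyp2ad2 and cyp2p8 kept it.

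In 3 of 88 groups of libraries checked, 1 library lay far from the others, where chance gives about 1 in 20. cyp2p8 was at 42.4 CPM in mutant palbociclib library 4, and the next library of that group was at 62.5 CPM. CYP7B1 was at 10.3 CPM in mutant DMSO library 3, and the next was at 6.70 CPM. CYP26B1 was at 34.2 CPM in mutant DMSO library 4, and the next was at 21.7 CPM.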

How the results depend on the processing

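The lower count of mutant against control in DMSO was 26. It was 4 under scaling to hepatocyte genes, 10 with the muscle share as a covariate, 15 without control DMSO libraries 3 and 4, and 23 to 30 when 1 library was left out. The higher count, 2, was 21 under scaling to hepatocyte genes, 1 in the compared groups alone, 1 without control DMSO libraries 3 and 4, and 1 to 2 when 1 library was left out. cyp2aa11, 1 of the 2, had too few counts to be tested in the compared groups alone. cyp2aa2 and CYP27A1_069186, called lower, were not tested there either. In palbociclib the lower count, 1, was 3 with library size alone, 4 with the muscle covariate, 4 in the compared groups alone, 5 by DESeq2 and 1 to 3 with 1 library left out; the higher count, 0, was 2 with library size alone, 1 with the minimum of 10 counts, 2 with the muscle covariate, 1 by DESeq2 and 0 to 2 with 1 library left out. For palbociclib in mutant livers the higher count, 0, was 1 with library size alone, 5 with the muscle covariate and 3 in the compared groups alone. For palbociclib in control livers the lower count, 13, was 8 with library size alone, 1 under hepatocyte scaling, 0 with the muscle covariate, 4 in the compared groups alone, 1 without control DMSO libraries 3 and 4, and 3 to 23 with 1 library left out; the higher count, 0, was 8 under hepatocyte scaling. For the interaction the positive count, 6, was 1 under hepatocyte scaling, 3 with the muscle covariate, 11 by DESeq2, 2 without control DMSO libraries 3 and 4, and 3 to 17 with 1 library left out; the negative count, 0, was 12 under hepatocyte scaling and 0 to 1 with 1 library left out. Over all 17048 tested genes, hepatocyte scaling called 173 lower and 14255 higher in mutant against control in DMSO. For palbociclib in control livers it called 50 lower and 6423 higher, and in the interaction 13 positive and 10465 negative. Library size alone called 108 lower and 192 higher in mutant against control in palbociclib, and the muscle covariate 165 and 280. For palbociclib in mutant livers library size alone called 36 higher. DESeq2 called 526 positive interactions, against 297 in the main fit. In the compared groups alone 314 of 15914 genes were lower for palbociclib in control livers. With the minimum of 10 counts 119 of 22883 genes were higher in mutant against control in palbociclib. In these fits the cause was not tested.

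Under hepatocyte scaling 11 of 28 called members turned direction in mutant against control in DMSO, 3 of 13 for palbociclib in control livers and 2 of 6 in the interaction. They were cyp2p8 (0.082), cyp27a2 (0.22), CYP7B1 (0.20), cyp1d1 (0.0039), cyp3a65 (1.00), CYP8B1_053068 (0.29), cyp27a1.1 (0.15), cyp2p6 (0.46), cyp2p7 (0.34), cyp2x9 (0.72) and cyp2k19 (0.30) in mutant against control in DMSO, cyp2aa1 (0.0030), cyp27a1.1 (0.18) and cyp3c1 (0.29) for palbociclib in control livers, and cyp2aa1 (-0.25) and cyp2p8 (-0.017) in the interaction. Of these, only cyp3a65 (adjusted p = 0.000465) and cyp2x9 (adjusted p = 0.0242) passed in the new direction, both in mutant against control in DMSO. Most of the calls that kept their direction were lost as well. In the same order of comparisons, 6 of 28, 1 of 13 and 1 of 6 members were still called in the same direction. cyp3a65 also changed sign with library size alone, to 0.0056 (adjusted p = 0.974). Hepatocyte scaling moved the median of all genes to 1.40, 0.79 and -1.31 in these comparisons, and library size alone to 0.42, 0.23 and -0.27.

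Libraries with the same replicate number did not deviate together: 0 of 16 pairs correlated above 0.1 (r from -0.19 to 0.057). With a replicate block the lower count for palbociclib in control livers was 2 and the positive interaction count 1; the other lower and higher counts were 25 and 2 in DMSO, 1 and 0 in palbociclib, and 0 elsewhere. Over all 17048 tested genes the block gave 244 lower for palbociclib in control livers, against 738 in the main fit. It gave 117 positive interactions, against 297. Lower and higher counts over all genes were 1515 and 865 in DMSO and 35 and 76 in palbociclib. DESeq2 kept all 30 calls of the genes described in full, and with 1 library left out 255 such calls held and 61 were lost.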
